A study of Mus musculus with 15 samples.

Results

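The mouse Trim5, Trim12, Trim30 and Trim34 genes form a cluster of tripartite motif (TRIM) genes on chromosome 7. They were measured by RNA sequencing in 15 libraries of eosinophils, the granulocytes of type 2 immunity. The 8 genes described here are Trim34a, Trim5, Trim12a, Trim12c, Trim30b, Trim30c, Trim30a and Trim30d, taken by symbol from a table of 26366 genes. All 8 were in the table, and 6 of them passed the filter on low counts that left 10357 genes for testing; Trim34a and Trim30c did not. Trim12c was chosen by its high counts in the bone marrow libraries and the other 7 by name and place, so the differences of Trim12c from bone marrow are given as a description, with nothing read from their tests, and the question is whether its paralogs share that signal. The eosinophils came from 7 wild-type C57BL/6 mice. All of them had received 4-nitroquinoline 1-oxide (4-NQO), an agent used to induce esophageal tumours, for 8 weeks and then propylene glycol for 8 weeks, and had reached a pre-cancer stage, so no untreated mouse enters any comparison. The groups were 7 libraries from esophageal lamina propria and 4 from colonic lamina propria, both isolated by immunomagnetic positive selection, and 4 of bone marrow-derived eosinophils. The labels do not say whether the last were isolated from marrow or cultured from it, and no isolation step is given for them, so tissue and way of isolation cannot be told apart. The mouse age is not given in the sources used here. Mice 5 to 8 gave a library of each tissue, and mice 1, 2 and 3 gave an esophagus library alone. All F mice were in cage 1 and all M mice in cage 2, so sex and cage cannot be told apart.

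TRIM proteins carry a RING domain, a B-box and a coiled coil, and many of them act as E3 ubiquitin ligases. In primates, TRIM5α binds the capsid of incoming retroviruses through a C-terminal SPRY domain and blocks infection. The rodent cluster arose by duplication of genes related to the primate TRIM5 gene, and several of its members respond to type I interferon. Because the copies are alike in sequence, a read from one can match another.

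The closest relatives of Trim12c are Trim5 and Trim12a, and the starts of their coding sequences are shown because they bear on whether counts can be told apart between the copies. Over their whole coding sequences, Trim12c and Trim5 were identical at 96.6% of 1491 positions, Trim12c and Trim12a at 96.4% of the 891 positions that Trim12a has, and Trim5 and Trim12a at 97.1%. The first 120 coding bases lie on the minus strand of GRCm38 at chr7:104348228-104348347 for Trim12c, chr7:104307212-104307331 for Trim12a and chr7:104279613-104279732 for Trim5, each within 1 coding exon. They are printed from the GENCODE M21 transcripts, 5′ to 3′, with capitals at the bases that differ from Trim12c.
Trim12c: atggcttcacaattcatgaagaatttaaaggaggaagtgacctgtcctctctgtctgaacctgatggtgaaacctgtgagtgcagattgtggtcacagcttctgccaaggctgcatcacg
Trim12a: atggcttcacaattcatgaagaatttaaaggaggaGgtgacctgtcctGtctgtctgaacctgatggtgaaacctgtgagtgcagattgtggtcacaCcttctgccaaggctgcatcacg
Trim5: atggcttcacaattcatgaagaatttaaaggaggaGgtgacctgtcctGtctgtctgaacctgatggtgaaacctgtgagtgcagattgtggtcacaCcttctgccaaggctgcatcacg
Trim12a and Trim5 each differed from Trim12c at 3 of these 120 bases, and a short read from this stretch may carry none of the differences.

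The bases upstream of these genes were also alike. The 250 bases before the annotated start are shown for the same 3 genes from RefSeq (GRCm38.p6, minus strand), with capitals at a match to GAAA followed, after any 2 bases, by GAAA again, or the same with TTTC on the other strand, the core of the interferon-stimulated response element. The windows are chr7:104353350-104353599 for Trim12c, chr7:104315496-104315745 for Trim12a and chr7:104288107-104288356 for Trim5.
Trim12c upstream: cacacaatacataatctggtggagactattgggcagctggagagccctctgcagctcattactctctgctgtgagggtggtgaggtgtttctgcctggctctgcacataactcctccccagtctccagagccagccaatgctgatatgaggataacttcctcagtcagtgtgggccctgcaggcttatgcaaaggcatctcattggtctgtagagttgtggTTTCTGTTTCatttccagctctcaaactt
Trim5 upstream: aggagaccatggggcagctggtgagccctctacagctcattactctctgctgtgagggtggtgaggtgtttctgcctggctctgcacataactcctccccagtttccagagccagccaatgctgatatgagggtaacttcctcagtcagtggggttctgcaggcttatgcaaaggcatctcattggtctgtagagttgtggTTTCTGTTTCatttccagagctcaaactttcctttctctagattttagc
Trim12a upstream: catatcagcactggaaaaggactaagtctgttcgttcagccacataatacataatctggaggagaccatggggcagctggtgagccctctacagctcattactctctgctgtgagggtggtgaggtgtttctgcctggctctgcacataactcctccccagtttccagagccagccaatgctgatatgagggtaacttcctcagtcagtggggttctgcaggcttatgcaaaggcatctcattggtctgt
Aligned to the Trim12c window, the Trim5 window was identical at 95.2% of 230 columns and the Trim12a window at 94.8% of 211 columns. The match began 29 bases before the start of Trim12c and 49 bases before that of Trim5. Of the 8 genes, 4 had a match in a 250-base window, the others being Trim30a and Trim30d, at 36 and 41 bases before the start, against 978 of 32851 windows of this length (2.98%) and 1 of 58 windows of other TRIM genes. Trim12a had none in this window, but its RefSeq start lies further upstream relative to the shared sequence, and the 300-base window that reaches 50 bases past the start held 1 match. With 300-base windows, Trim34a also had a match, and 7 of 9 windows of the 8 genes held one, against 1131 of 32851 (3.44%). A match is a run of letters and does not show binding.

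Library totals ranged from 85677 to 612386 counts, namely 85677 to 371218 for esophagus, 227179 to 612386 for colon and 189060 to 286166 for bone marrow. A count of 0 therefore allows up to 3 counts, or 4.90 to 35.0 CPM (counts per 1000000 counts of the library), and intervals and floors cover counting error only. The labelled cell type was checked against its markers. Of 12 eosinophil markers, 2 were at 0 in every esophagus library, the eosinophil peroxidase gene Epx and Ear2. The granule protein genes Prg2 and Prg3 were at 0 in every bone marrow library, and none of the 12 was at 0 throughout colon. Epx had 2 to 5 counts in each bone marrow library. Ccr3 had 104 counts over the esophagus, 91 over the colon and 22 over the bone marrow libraries, and Il5ra had 81, 58 and 21. The summed level of the 12 was 110.4 to 479 CPM over the esophagus, 150.1 to 234 CPM over the colon and 112 to 148 CPM over the bone marrow libraries, and 2 of them passed the filter. In bulk libraries, fewer cells of a type and less RNA per cell cannot be told apart.

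Trim12c, which in mouse cells has been linked to interferon and NF-κB signalling with the ligase TRAF6, was among the most counted genes of every bone marrow library. Its counts there were 3919, 6005, 1842 and 2254 in mice 5, 6, 7 and 8. In colon they were 91, 9, 29 and 17 in the same mice. In esophagus the lowest was 7, the median 17 and the highest 50. No esophagus or colon library came near a bone marrow library, the highest being 584 CPM in the esophagus of mouse 3 and the lowest bone marrow library 6437 CPM. Trim12c made up 2.07% of all counts in the bone marrow library of mouse 5 (95% Wilson interval 2.01 to 2.14%), 3.18% in mouse 6 (3.10 to 3.26%), 0.644% in mouse 7 (0.615 to 0.674%) and 0.913% in mouse 8 (0.876 to 0.951%). It ranked 2nd among all genes in 3 of these libraries and 3rd in the other. The mean was 17010 ± 11620 CPM in bone marrow (SD, n = 4), 183 ± 202 CPM in esophagus (n = 7) and 73.7 ± 68.4 CPM in colon (n = 4). The edgeR log2 fold change was -7.25 (SE 0.91) for esophagus against bone marrow and -8.14 (SE 1.21) for colon against bone marrow. These are the differences for which the gene was chosen, and both comparisons share the same 4 bone marrow libraries. For the second, leaving out the colon library of mouse 5 moved the value to -8.97 and leaving out the bone marrow library of mouse 6 moved it to -7.54. A limma voom fit with a random block for mouse gave -6.50 and -1.91 for the 2 comparisons, and voom with quality weights gave -7.89 and -7.58.

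**Figure D1:**
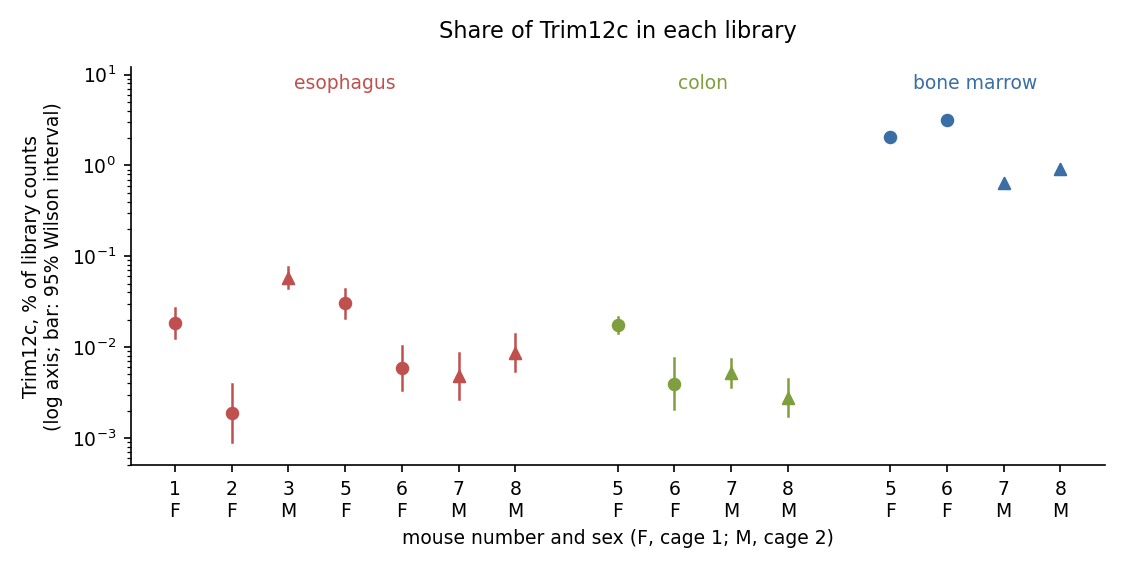
Trim12c counts as a percentage of all counts of each of the 15 libraries, on a log axis, by tissue and mouse; circles are F mice (cage 1), triangles M mice (cage 2), and bars are 95% Wilson intervals for counting error. The 4 bone marrow libraries lie between 0.644% and 3.18%, and every esophagus and colon library lies at 0.0584% or below.

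Trim5, the mouse gene named for primate TRIM5, was the only one of the other 7 genes whose bone marrow libraries stood above every library of both other tissues. Its counts in bone marrow were 31, 42, 38 and 41 in mice 5, 6, 7 and 8. In colon they were 22, 12, 5 and 15. In esophagus the lowest was 0, the median 7 and the highest 25, with 2 of 7 libraries at 0. The lowest bone marrow library, at 132.8 CPM, was above the highest esophagus library, at 113.5 CPM, and the highest colon library, at 52.8 CPM. Such a complete separation in this direction was found for 1.11% of all tested genes in esophagus against bone marrow and for 2.39% in colon against bone marrow. The means were 171 ± 37.2 CPM in bone marrow (SD, n = 4), 45.6 ± 39.6 CPM in esophagus (n = 7) and 32.2 ± 19.4 CPM in colon (n = 4). The log2 fold change was -2.17 (SE 0.75, 95% interval -3.65 to -0.68) for esophagus against bone marrow, with an adjusted p of 0.284 by edgeR's quasi-likelihood test. It was -2.63 (SE 0.91, 95% interval -4.43 to -0.83) for colon against bone marrow, with an edgeR adjusted p of 0.450, so neither passed the threshold of 0.05. In colon against bone marrow, DESeq2 called Trim5 lower (log2 fold change -2.77, adjusted p 0.0149), as did limma voom with quality weights (-2.90, adjusted p 3.83e-05). In bone marrow, the Trim5 counts were 0.699 to 2.06% of the Trim12c counts of the same library. Trim5 shared 889 distinct 50-base words with Trim12c, 23.5% of its own and 24.2% of those of Trim12c, and how such reads were assigned is not given in the sources used here. The part of shared reads in the Trim5 difference was not tested.

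Trim12a, a shorter paralog of the same branch, was not called in either comparison against bone marrow. Its counts were 22, 6, 26 and 13 in bone marrow and 37, 32, 37 and 22 in colon, in mice 5, 6, 7 and 8, and 0 to 28 with a median of 9 in esophagus. The means were 72.9 ± 37.9 CPM in bone marrow (SD, n = 4), 78.6 ± 44.3 CPM in colon (n = 4) and 52.4 ± 36.3 CPM in esophagus (n = 7), and the libraries of the 3 tissues overlapped. The log2 fold change was -0.78 for esophagus against bone marrow (SE 0.83, 95% interval -2.41 to 0.85, edgeR adjusted p 0.999). For colon it was -0.10 (SE 0.93, 95% interval -1.93 to 1.73, edgeR adjusted p 1.0). An antisense gene, Gm15133, overlaps Trim12a in GENCODE M21, and no strand setting is given for the counting. Added into 1 gene, Trim12a, Trim12c and Trim5 gave -6.53 (SE 0.39) and -6.84 (SE 0.51) against bone marrow, with Trim12c holding nearly all of the summed bone marrow counts.

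The 4 Trim30 genes, of which Trim30a is known in the mouse as a negative regulator of Toll-like receptor signalling that acts on TAB2 and TAB3, were low in all tissues. Trim30b had 5, 10, 24 and 21 counts in the bone marrow of mice 5, 6, 7 and 8, 46, 17, 39 and 56 in colon, and 0 to 41 with a median of 5 in esophagus. Trim30a had 2, 4, 9 and 4 counts in bone marrow, 26, 12, 26 and 5 in colon, and 0 to 19 with a median of 4 in esophagus. Trim30d had 4, 6, 14 and 3 counts in bone marrow, 24, 14, 21 and 21 in colon, and 0 to 11 with a median of 2 in esophagus. None of the 3 had its highest mean in bone marrow, and in each of them the libraries of the 3 tissues overlapped. Against bone marrow, the log2 fold changes of Trim30b were -0.06 (SE 0.82) in esophagus and 0.25 (SE 0.91) in colon. Those of Trim30a were 0.49 (SE 1.09) and 0.75 (SE 1.2), and those of Trim30d -0.83 (SE 1.09) and 0.46 (SE 1.2). The sign of Trim30b in esophagus was not stable, since it was 0.27 with library size alone as the scaling and 0.08 with DESeq2 size factors. Trim30c, with 8 counts in all bone marrow libraries, 28 in colon and 26 in esophagus, failed the filter. The Trim30 genes added into 1 gene gave -0.05 (SE 0.60) and 0.44 (SE 0.67) against bone marrow, each with an edgeR adjusted p of 1.

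Trim34a, an interferon-inducible gene whose human counterpart acts with TRIM5α against retroviral capsids, also failed the filter. It had 12 counts in the bone marrow library of mouse 8 and 0 in the other 3, 9, 1, 9 and 3 counts in the colon of mice 5, 6, 7 and 8, and 0 in 4 of 7 esophagus libraries with a highest count of 16. In a fit without the filter, its log2 fold changes against bone marrow were -0.34 (SE 1.39) in esophagus and -0.21 (SE 1.55) in colon, and those of Trim30c 0.43 (SE 1.41) and 0.87 (SE 1.57). Trim34a shared 39.8% of its 50-base words with Trim34b, and an antisense gene, Gm47248, overlaps it.

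**Figure D2:**
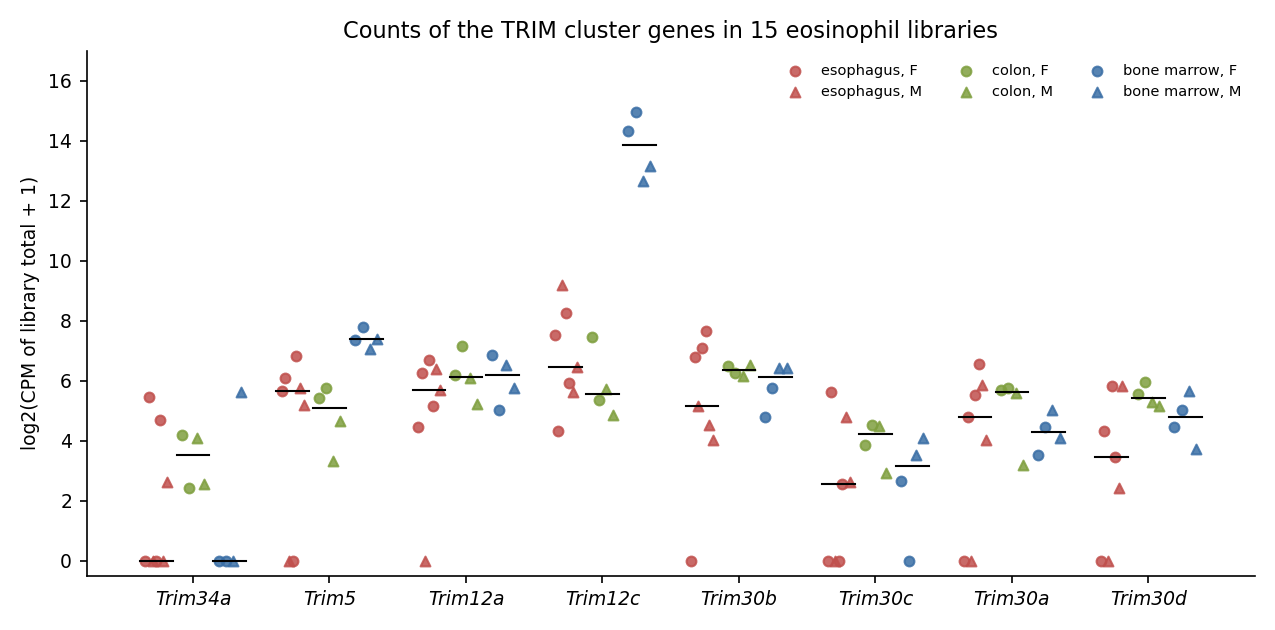
Level of the 8 genes in each of the 15 libraries as log2 of CPM of the library total plus 1, ordered along the chromosome; circles are F mice, triangles M mice, and black lines group medians. Trim12c stands apart in the 4 bone marrow libraries, Trim5 is higher there without overlap, and the other 6 genes overlap between tissues.

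Over the cluster, then, 1 of the 6 tested genes was called lower than bone marrow in esophagus and 1 in colon, in both cases Trim12c itself, against 0.811% and 0.434% of all tested genes. Since the choice of Trim12c used these contrasts, nothing is read from those counts. Of the 5 other tested genes, edgeR called 0 in either comparison, and 1 in each, Trim5, had an unadjusted p under 0.05, against 3.9% and 1.6% of all tested genes that were lower at that threshold. DESeq2 called 0 of the 5 in esophagus and 1 in colon, against 0.946% and 0.782% of tested genes called lower, and limma voom with quality weights 0 and 1, against 0.222% and 1.56%. In colon, DESeq2 gave Trim30a and Trim30d no adjusted p, so neither could be called there. The shares are over all 10357 tested genes, with or without an adjusted p. The median log2 fold change of the 5 was -0.78 in esophagus and 0.25 in colon, beside -0.18 and 0.03 over all tested genes. Together the other 7 genes held 343 to 398 CPM in the bone marrow libraries, 206 to 409 CPM in colon and 35.0 to 484 CPM in esophagus, so their sums overlapped. Trim12c accounted for 97.6% of the 8 genes' pooled counts in bone marrow, 28.4% in esophagus and 21.3% in colon. Per library, this share was 94.2 to 98.9% in bone marrow, 4.6 to 94.3% in esophagus and 8.8 to 34.7% in colon, so esophagus overlapped bone marrow. The 94.3% was in mouse 3, with 50 counts of Trim12c and 3 of the other 7 genes. Per kilobase of exon, the level of Trim12c in bone marrow was 4547 ± 3107 CPM (SD, n = 4) and that of Trim5 46.4 ± 10.1 CPM, followed by Trim12a at 12.6 ± 6.55 CPM. Below them came Trim30b at 8.25 ± 3.73 CPM, Trim30d at 7.58 ± 4.21 CPM, Trim30a at 4.83 ± 2.16 CPM, Trim34a at 4.69 ± 9.38 CPM and Trim30c at 4.66 ± 4.05 CPM per kilobase, and neighbours among the last 6 in this order differed by less than their spread.

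**Figure D3:**
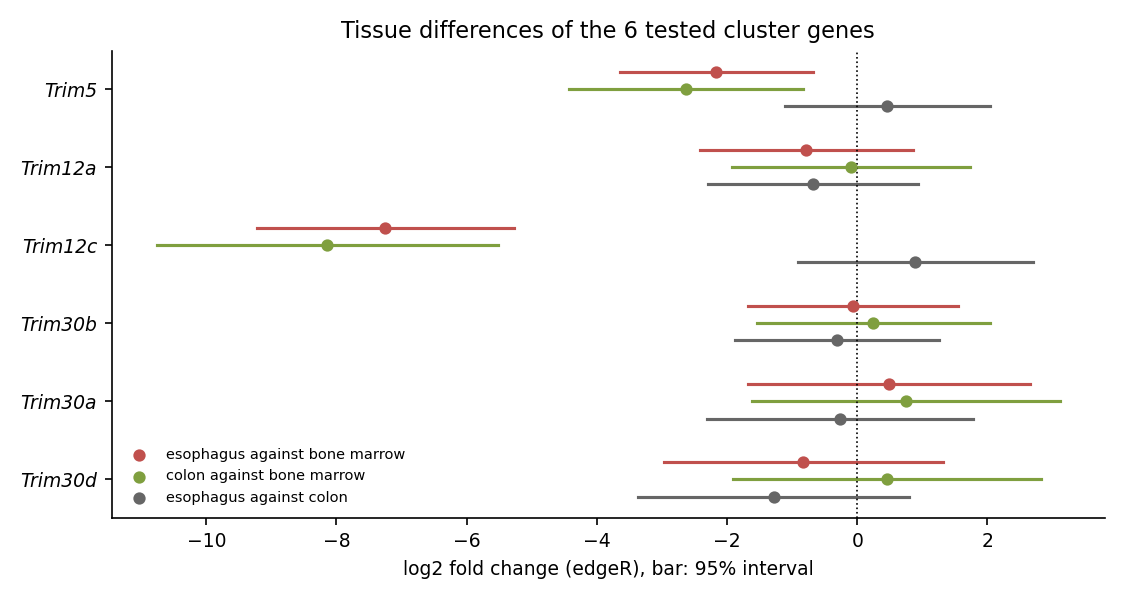
Log2 fold changes of the 6 tested genes with 95% intervals from the edgeR fit, for esophagus against bone marrow, colon against bone marrow and esophagus against colon. Trim12c lies at -7.25 and -8.14 against bone marrow, Trim5 at -2.17 and -2.63, and the intervals of the other 4 genes hold 0.

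Between the 2 lamina propria tissues, a contrast that did not choose Trim12c, none of the 6 tested genes was called by edgeR, and none had an unadjusted p under 0.05. The background was 0.0193% of all tested genes called lower and 0.0676% called higher in esophagus, and 2.08% and 0.579% at the unadjusted threshold. DESeq2 and limma voom with quality weights also called none of the 6, against 0.106% and 0.0386% of tested genes. Trim12c differed by 0.89 (SE 0.83, 95% interval -0.91 to 2.70, edgeR adjusted p 1.0), and its esophagus libraries spread from 18.9 to 584 CPM around the colon libraries at 27.8 to 175 CPM. Without the colon library of mouse 5 the value was 1.68 (edgeR adjusted p 0.170), and over all libraries left out in turn it lay between 0.39 and 1.68. Trim30d differed by -1.29 (SE 1.05, edgeR adjusted p 1.0), with 20.8 ± 25.1 CPM in esophagus (SD, n = 7) and 45.0 ± 12.2 CPM in colon (n = 4). Trim5 differed by 0.47 (SE 0.80), Trim12a by -0.68 (SE 0.82), Trim30b by -0.31 (SE 0.79) and Trim30a by -0.26 (SE 1.03).

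The level of Trim12c in bone marrow was also compared by cage. It was 20700 and 31760 CPM in the F mice of cage 1 and 6437 and 9131 CPM in the M mice of cage 2. With 2 mice on each side, a lack of overlap is easily reached by chance. Its share over all tested genes was not counted. In colon it was 39.6 and 175 CPM in F and 27.8 and 52.2 CPM in M mice, and in esophagus 18.9 to 303 CPM in 4 F and 48.4 to 584 CPM in 3 M mice. A limma voom fit on tissue and cage, in which mouse was a random block, gave M minus F as -2.0 (SE 0.13, adjusted p 7.48e-10), and it was called lower in M with each of the 7 mice left out in turn, between -2.37 and -1.62. With this fit, 0.425% of all tested genes were lower in M, and of the 6 tested cluster genes Trim12c was the 1 called lower and none was called higher, against 0.0676% of all tested genes. The call was lost with edgeR and no block, at -0.65 (adjusted p 1.0), where 0.0966% of tested genes were called in either direction. A random block for mouse was also used in the separate fit on tissue without cage. There Trim12c came to -1.91 for colon against bone marrow, far from its values per library. Within tissues, edgeR gave Trim12c -2.02 (SE 0.64, unadjusted p 0.00165, adjusted p 1) in bone marrow. In colon it gave -1.33 (SE 0.64, unadjusted p 0.0383, adjusted p 1) and in esophagus 0.57 (SE 0.49, adjusted p 0.957). The tissue by cage interaction of Trim12c had an unadjusted p of 0.00248 and an adjusted p of 0.641 by edgeR. For Trim30b in esophagus, edgeR gave -2.38 (SE 1.21, unadjusted p 0.0492, adjusted p 0.736). No other paralog had an unadjusted p under 0.05 within a tissue. The share of all tested genes at that threshold was not counted. Trim5 was -0.96 (SE 0.63, adjusted p 1.0) in the limma fit, with 163.7 and 222 CPM in the bone marrow of F and 132.8 and 166 CPM in that of M mice. The other 4 tested genes lay between -0.61 and -0.04, and limma called none of them. Of the 5 genes whose levels were most like that of Trim12c over the libraries, the same fit called 3 lower in M, namely Itgam at -1.06 (SE 0.08, adjusted p 2.0e-09), Pycr1 at -2.05 (SE 0.25, adjusted p 1.61e-05) and Tbata at -2.36 (SE 0.34, adjusted p 0.000252). It did not call Gm2244 at -1.99 (adjusted p 0.982) or AA465934 at -1.94 (adjusted p 0.0580). These 5 genes were picked for following Trim12c over the same libraries, the F and M bone marrow libraries among them. Nothing is therefore read from their calls.

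Of the 7 genes in the table that lie between these genes or within 5 genes on either side, 3 passed the filter. Against bone marrow, edgeR called 0.811% of all tested genes lower in esophagus and 0.434% in colon. These shares were 0.946% and 0.782% by DESeq2, and 0.222% and 1.56% by limma voom with quality weights. At such shares a lack of calls says little for 3 genes. None of the 3 was called in either comparison against bone marrow by edgeR, by DESeq2 or by the quality-weighted limma voom fit. One of them, the olfactory receptor gene Olfr649, had an unadjusted p under 0.05 in edgeR, against 0.686% of tested genes that were higher at that threshold, with a higher level in esophagus (log2 fold change 4.11, edgeR adjusted p 0.412), with 2 counts in all of bone marrow. Trim34b, which lies between Trim12a and Trim12c, had 8 counts over the esophagus libraries, 29 over colon and 11 over bone marrow. Among the neighbours with at least 100 counts, the olfactory receptor gene Olfr648 had 126 counts in esophagus, 143 in colon and 60 in the marrow libraries, and Olfr652 had 68, 129 and 34 in the same order. The TRIM gene Trim6, next to Trim34a, had 27, 69 and 42 counts and did not pass the filter. These sums are over groups of unequal size and depth. In mean CPM, Trim6 was highest in bone marrow, at 47.96 ± 15.95 CPM (SD, n = 4). It was at 36.28 ± 8.238 CPM in colon (n = 4) and 16.93 ± 13.72 CPM in esophagus (n = 7), and its libraries overlapped between tissues. Olfr648 and Olfr652 had their lowest mean in bone marrow, at 64.04 and 36.19 CPM, and Trim34b its highest in colon, at 14.92 CPM.

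Of 59 other TRIM genes, 26 were tested, and edgeR called 1 lower than bone marrow in esophagus and in colon, in both cases Trim2, a ubiquitin ligase best known from neurons, against 0.811% and 0.434% of all tested genes. Trim2 had 94 to 391 counts in the bone marrow libraries, 40 to 130 in colon and 4 to 58 in esophagus, which came to 1049 ± 767 CPM (SD, n = 4), 190 ± 32.3 CPM (n = 4) and 149 ± 121 CPM (n = 7). In CPM esophagus and bone marrow overlapped, with 361.8 in the esophagus of mouse 3 and 328.5 in the bone marrow of mouse 7. The log2 fold changes of Trim2 were -3.35 in esophagus (SE 0.46, edgeR adjusted p 1.18e-06) and -2.73 in colon (SE 0.55, edgeR adjusted p 0.00409). DESeq2 called it in both, and limma voom with quality weights in colon but not in esophagus. The medians of the 26 were -0.42 and -0.03. The lists of the cluster's pathways gave no call, which at these background shares says little for lists of their size. In them, edgeR called 0 of 14 tested signalling partners of TRIM5 and TRIM30, 0 of 17 type I interferon response genes and 0 of 11 genes of retroviral restriction and cytosolic sensing in any of the 3 tissue comparisons, and none of them had an unadjusted p under 0.05 or was called by DESeq2 or limma voom with quality weights there. In esophagus against bone marrow, the medians of these lists were 0.08, -0.44 and 0.09, and in colon against bone marrow 0.18, -0.08 and -0.04.

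Among the marker lists of other cell types, the fibroblast and endothelium list held 1 called gene, Pecam1, an adhesion molecule of endothelium and leukocytes. Of the 6 tested genes of this list, edgeR called that 1 lower in esophagus (log2 fold change -5.49) and in colon (-4.51). The shares of all tested genes called lower were 0.811% and 0.434%. The limma cage fit called Pecam1 lower in M (-1.16, adjusted p 0.00720), against 0.425% of all tested genes. The median log2 fold change of the 6 was -0.55 in esophagus and 0.23 in colon against bone marrow. The summed level of the 8 listed genes was 989 to 1624 CPM in bone marrow, 374 to 599 CPM in colon and 191 to 496 CPM in esophagus, with none at 0 in a whole group. Its part in the Trim12c values was not tested. In the lists for T and NK cells, B and plasma cells, neutrophils, macrophages and monocytes, and squamous and colon epithelium, edgeR called no tested gene in the 3 tissue comparisons. An unadjusted p under 0.05 in edgeR was found for S100a9, 1 of 2 tested neutrophil genes, and Lyz2, 1 of 5 tested macrophage and monocyte genes. Both were higher in esophagus than colon, as were 0.579% of all tested genes at that threshold. Ly6c2, of the same 5, was higher in esophagus than bone marrow, against 0.686% of all tested genes, and DESeq2 called it. Of the erythroid and megakaryocyte list none passed the filter. The macrophage and monocyte list, with none of its 12 genes at 0 in a whole group, summed to 327 to 854 CPM in the esophagus libraries, each of them above the 238 to 314 CPM of colon and the 216 to 323 CPM of bone marrow. Its median sum was above that of the eosinophil list in each tissue, at 533 against 233 CPM in esophagus, 268 against 170 CPM in colon and 237 against 138 CPM in bone marrow. How often a list of this size separates in this way was not counted. The neutrophil list summed to 66.4 to 217 CPM in bone marrow and 56.5 to 490.2 CPM in esophagus. The part of these lists in the values of the cluster genes was not tested.

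Over the 15 libraries, the genes whose log2 CPM followed that of Trim12c most closely were not its paralogs. The 5 with the highest Pearson r were Itgam at 0.983, the integrin subunit CD11b of myeloid cells, Pycr1 at 0.952, an enzyme of proline synthesis, Tbata at 0.948, Gm2244 at 0.939 and AA465934 at 0.930. Itgam had 2695 to 3921 counts in bone marrow, 4 to 38 in colon and 7 to 23 in esophagus. Among the cluster genes the r was 0.57 for Trim5, which ranked 164th of all tested genes, 0.10 for Trim30d, 0.09 for Trim12a, 0.003 for Trim30b and -0.18 for Trim30a. These values are descriptive, since all points share the libraries, their depth and the split between bone marrow and the rest.

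A feature of the transcripts that the choice of genes did not use is a long run of purines. In GENCODE M21, the longest unbroken run of purines or of pyrimidines was 141 bases in Trim12c, a purine run in the 3′ untranslated region with 31 copies of GAAA. It was 69 bases in Trim5, also purines in the 3′ untranslated region, and 34 in Trim30b, 24 in Trim30d, 23 in Trim12a, 20 in Trim30a and Trim30c, and 16 in Trim34a. Runs of at least 50 bases, a length set after the data had been seen, were present in 11.35% of 10341 tested genes with a transcript, and 1.2% had one of 141 or more. Trim12c and Trim5 were the 2 cluster genes with such a run; since Trim12c was chosen for its bone marrow level and the length was set afterwards, nothing is read from this. Among the 26 other tested TRIM genes, 5 had such a run, of which Trim2, with 125 bases, was the 1 called, while Trim67, with 98 bases, had log2 fold changes of -0.68 and -1.08 and was not. Trim58, with a run of 157 bases, was too low to test, at 25 counts in bone marrow, 11 in colon and 2 in esophagus. Of the 5 genes most like Trim12c in level, which were picked by the same bone marrow level, 3 had such a run, with 113 bases in Gm2244, 89 in Itgam and 56 in Pycr1. Of the 64 distinct 50-base words in the Trim12c run, 41 (64.1%) also occurred, on either strand, in transcripts of 196 other genes, 127 of them tested. Whether the Trim12c counts lay over the run cannot be read from a table of counts per gene, and the part of the run in its bone marrow level was not tested.

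**Figure D4:**
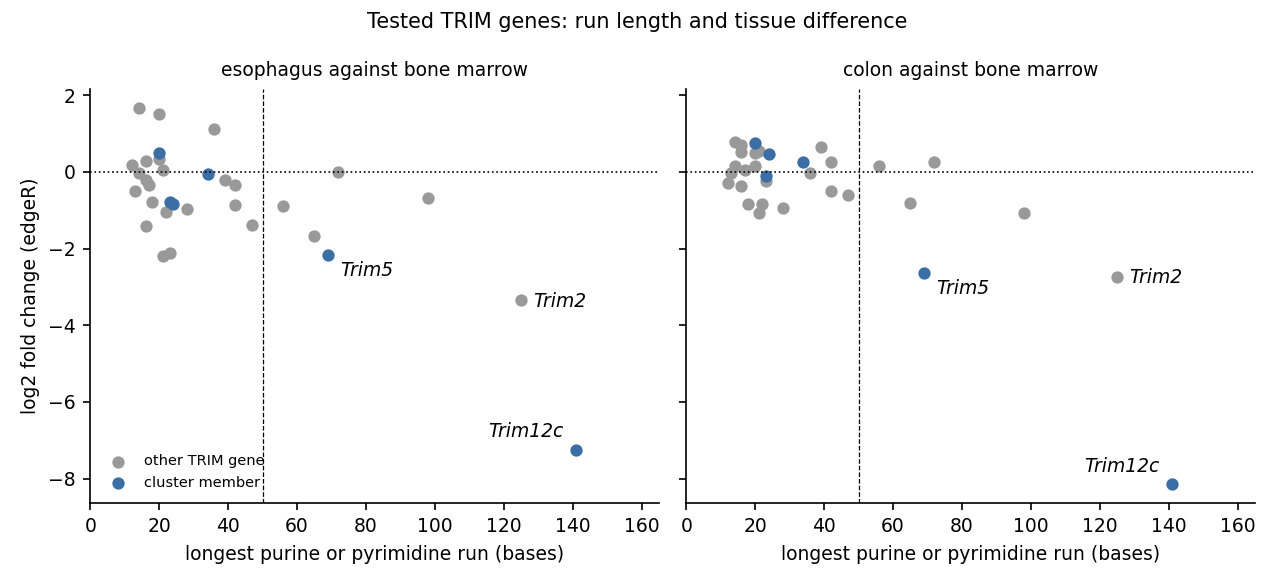
Longest purine or pyrimidine run in any GENCODE M21 transcript (bases) against the edgeR log2 fold change of the 32 tested TRIM genes, with the 6 cluster genes in blue, for esophagus (left) and colon (right) against bone marrow; the dashed line marks 50 bases. Trim12c (141 bases), Trim2 (125) and Trim5 (69) lie lowest in the right panel, and Trim67 (98) lies near the rest. In the left panel, Trim62 at -2.19 and Trim39 at -2.12, with runs of 21 and 23 bases, lie beside Trim5 at -2.17.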

How the data were processed

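Per the labels' protocols, eosinophil RNA went through the Ovation RNA-Seq System V2 amplification and an NEB library preparation. The authors deposited a table of raw counts per gene; limma 3.50.3 is listed in the submitters' processing notes. No source used here names the aligner, build, annotation or strand setting. GENCODE M21 held 26299 of the 26366 stable identifiers (99.75%) and served for order, exon length, transcripts and coding positions.

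Genes were filtered with filterByExpr (minimum count 10, minimum total 15), scaled by TMM and tested in 1 edgeR 4.0.16 quasi-likelihood fit of all 15 libraries by tissue (R 4.3.3, robust, 12 residual degrees of freedom), with Benjamini-Hochberg adjusted p under 0.05 over 10357 genes as a call. The cage or sex difference used limma 3.58.1 (voom, tissue as a term, mouse as a random block). CPM in the text are scaled to the library total, whereas fold changes use TMM scaling. Intervals are the estimate with its standard error, from the F statistic, and 95% t limits. DESeq2 1.42.0, other scalings, no filter, mouse blocks and leaving out each library were alternatives. The procedure was also run on simulated counts with the same spread for every gene and no mouse or cage effect. That setting differs from these data, so nothing is read from it for the cluster genes. Sequences were compared with Biopython 1.88 in Python 3.11.15.

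Libraries with the same mouse number come from the same animal, per the labels. Deviations from the tissue means correlated between them at -0.02 to 0.04 (12 pairs, mean 0.017), against a mean of -0.003 for 60 pairs of different mice.

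The cluster genes and all gene lists were chosen with earlier results of these data known. Named were the 8 cluster genes, neighbours with at least 100 counts, list genes past the threshold (at most 5 a list), and the 5 genes most correlated with Trim12c. S100a9, Lyz2, Ly6c2, Olfr649, Trim34b, Trim39, Trim58, Trim62, Trim67, Pecam1, Epx, Ear2, Prg2, Prg3, Ccr3 and Il5ra were named after their values were seen.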

Additional observations from a re-analysis of the deposited data

Results flagged for a closer look

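Of 24 groups of 4 or 7 libraries (8 genes in 3 tissues), 3 held a library far from the others by Dixon's test. Chance alone marks about 1 in 20 where values are normal and untied, which low counts with ties at 0 are not. Trim34a reached 48.6 CPM (12 counts) in the bone marrow library of mouse 8 and was at 0 in the other 3. Trim12c reached 175.0 CPM (91 counts) in the colon library of mouse 5, against 27.8 to 52.2 CPM in the other colon libraries. Trim30a was at 8.16 CPM (5 counts) in the colon library of mouse 8, the lowest of the 4.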

How the results depend on the processing

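The number of cluster genes called lower than bone marrow was 1 in each comparison, namely Trim12c, which was chosen by these contrasts. The shares of all tested genes called lower were 0.811% in esophagus and 0.434% in colon. In colon the number of cluster genes became 2 with DESeq2 and 0 with a random replicate block for mouse in limma voom. In esophagus it became 0 with limma voom quality weights and 0 with the random replicate block. With quality weights the count in colon stayed at 1, but the gene called was Trim5 in place of Trim12c. The log2 fold changes of Trim12c were -6.50 and -1.91 with the random block. With a fixed replicate block for mouse in edgeR, they were -7.62 and -8.15 and each count stayed at 1. For the cage difference the count of 1 became 0 with edgeR and no replicate block. The cause of these changes was not tested.

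No reversed value below was called. Trim30b in esophagus against bone marrow became 0.08 with DESeq2 size factors, 0.27 with library size alone, 0.08 with the DESeq2 test and 0.22 with mice 5 to 8 alone, a choice made after seeing the data. Trim12a in colon against bone marrow became 0.12 with library size alone and 0.01 without the filter. In esophagus against colon, Trim12c became -0.32 with quality weights and -4.60 with the random replicate block, and Trim30a 0.29 with the fixed replicate block and 0.34 with mice 5 to 8 alone. Trim30a in esophagus against bone marrow became -0.20 with the random replicate block.

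With each library left out in turn, the counts of called genes stayed at 1, 1 and 0 in the 3 tissue comparisons. For the cage difference the count stayed at 1 with each mouse left out. The gene called against bone marrow was Trim12c each time. It was chosen by these contrasts, so nothing is read from those counts. Trim12c ranged from -7.74 to -6.77 in esophagus and from -8.97 to -7.54 in colon against bone marrow, and from 0.39 (without the esophagus library of mouse 3) to 1.68 (without the colon library of mouse 5) in esophagus against colon. Signs were not stable for Trim30b in esophagus (-0.61 to 0.16), Trim30a in esophagus (-0.03 to 0.72), Trim12a in colon (-0.49 to 0.28) and Trim30b between cages (-0.48 to 0.20). Trim34a and Trim30c have no value in most alternatives, since they failed the filter. Counts below about 50 per library limit all paralogs.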
